A study of Mus musculus with 16 samples.

Results

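The comparison described here sets leukaemia cells taken from the central nervous system (CNS) against leukaemia cells taken from the bone marrow (BM) within 1 sorted population, named LSK. Its members were chosen from the sample labels alone, as the CNS and BM libraries of LSK cells, and number 8 of the 16 libraries in the series, with 4 from each niche. All came from mice of 1 genotype, miR-128a overexpressing Kmt2a-AFF1+, which serve as a model of infant acute lymphoblastic leukaemia of the pro-B type. The cells were sorted as Lin- Sca1+ cKit+ IL7R+, a population treated as leukaemia-propagating, and sequenced in bulk from total RNA with a stranded low-input kit. The other 8 libraries came from Lin- Sca1- cKit+ cells of the same model, named LK. Genes found in LSK cells are looked up in them. They also enter a test of whether the change differs between LSK and LK, and alternative fits of all 16 libraries. Every library carries both the fusion and the microRNA, so neither lesion is compared. The strain and age of the mice, how miR-128a was expressed, whether the mice were primary or recipients, and whether libraries pool animals are not given in the sources used here.

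Leukaemia cells that enter the CNS live in the meninges and the cerebrospinal fluid, a fluid with little protein and lipid. Lymphoblasts there meet a different set of adhesion partners and nutrients, and CNS infiltration is a known problem of infant leukaemia with KMT2A fusions. Work on this niche has dwelt on lipid supply, adhesion and migration, and response to low oxygen, and the gene groups below follow those roles.

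The labels name each LSK library with a stem and a letter for the niche, and the 4 stems each occur once in BM and once in CNS. Stems are numbered 1 to 4 below, so that BM LSK 1 and CNS LSK 1 share stem 1. The labels do not say whether a stem is a mouse, a litter or a batch, so the p-values measure only the spread between these libraries. Gene levels are given as CPM, counts per 1e6 counts of the library, after TMM scaling, a scaling that aligns the bulk of genes between libraries, and CPM is not divided by gene length. Total counts ran from 19.2 to 27.9 M (M, 1e6 counts) per library. Identifiers without a gene symbol held between 39.0% and 43.5% of the counts.

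The defining genes of the labelled cell type were checked before any comparison. Pax5, the factor that commits cells to the B lineage, lay between 0.0451 and 0.912 CPM in BM and between 0.641 and 1.53 CPM in CNS, and Ebf1, its partner, reached at most 1.31 CPM in any library. Vpreb1 and Igll1, which encode the surrogate light chain of pro-B cells, stayed at or below 0.412 and 0.485 CPM. Olfactory and vomeronasal receptor genes, which lymphocytes are not known to use as a group, give a measure of the level that silent genes reach here. Of 1969 such genes, the 95th percentile lay between 0.271 and 0.889 CPM over the 8 libraries, so these 4 genes were at or close to the level of silent genes. Over the whole list of 15 pro-B markers, the sum lay between 556 and 676 CPM in BM and between 499 and 870 CPM in CNS, and 8 of the 15 had a mean below 1 CPM. The sum came almost wholly from Rag1, Kit, Il7r, Dntt and Cd24a, which early T-lineage cells also express, while Cd79a and Blnk reached at most 2.14 and 2.68 CPM. A wider list of 28 B-lineage genes summed to between 836 and 901 CPM in BM and between 848 and 915 CPM in CNS, with 12 below 1 CPM. Its highest members were Ikzf1 at 266 to 315 CPM, Lef1 at 140 to 230 CPM and Tcf3 at 120 to 158 CPM, transcription factors shared with the T lineage, and the B-cell coactivator gene Pou2af1 was at 35.9 to 67.6 CPM.

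Several genes of Notch signalling and the early T lineage were at high levels in all 8 libraries. The list of 26 such genes summed to between 3876 and 4570 CPM in BM and between 3595 and 4263 CPM in CNS. Of the 26, 6 had a mean below 1 CPM. Notch1, the receptor that directs progenitors into the T lineage, lay between 1351 and 1530 CPM in BM and between 1262 and 1399 CPM in CNS. Tcf7, a T-lineage transcription factor, lay between 505 and 627 CPM in BM and between 476 and 633 CPM in CNS, and Bcl11b, which fixes T-lineage commitment, between 271 and 310 CPM in BM and between 267 and 310 CPM in CNS. Rag1, a subunit of the recombinase shared by B and T precursors, lay between 245 and 284 CPM in BM and between 227 and 316 CPM in CNS. Cd3e, part of the mature T-cell receptor complex, did not exceed 0.687 CPM. Other T-cell genes were expressed. The list of 14 T and NK cell markers that holds Cd3e summed to between 229 and 268 CPM in BM. In CNS it summed to between 198 and 258 CPM, and 8 of the 14 had a mean below 1 CPM. Of the sort antigens, Kit lay between 117 and 169 CPM and Il7r between 60.1 and 103 CPM, while Ly6a, which encodes Sca1, lay between 0.946 and 2.29 CPM. The low Pax5, Ebf1, Vpreb1 and Igll1 and the high Notch1, Tcf7 and Bcl11b thus go against the pro-B label. Some genes of the B-lineage list, such as Pou2af1, were nevertheless expressed. Ly6a RNA was also low for cells sorted as Sca1+, though RNA does not measure the surface protein. The cells are called LSK leukaemia cells after the sort, not after these levels.

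**Figure D1:**
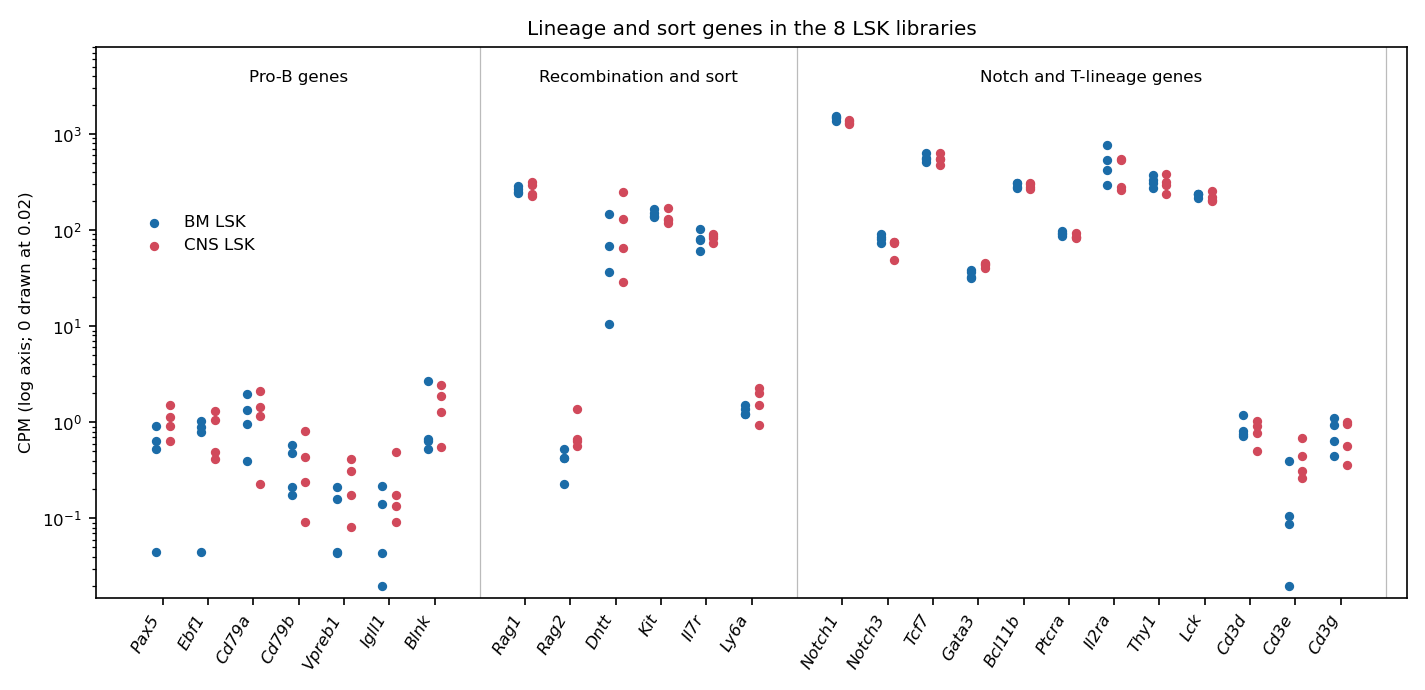
Level of pro-B, recombination, sort and T-lineage genes in each LSK library, in CPM on a log axis, with BM libraries in blue and CNS libraries in red (4 each; a value of 0 is drawn at 0.02). The pro-B genes lie below 3 CPM in both niches, while Notch1, Tcf7, Bcl11b and Il2ra lie above 200 CPM in every library. Notch3 lies between 49.0 and 91.1 CPM, Gata3 between 31.9 and 45.7 CPM, and Cd3e lower still. Rag1, Dntt, Kit and Il7r, also on the list of pro-B markers, are drawn with the recombination and sort genes.

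Markers of cells that could enter a sort were also summed in each library. The 16 myeloid markers summed to between 4.92 and 7.37 CPM in BM and between 6.50 and 11.4 CPM in CNS, and the neutrophil enzyme Elane did not exceed 0.161 CPM. The 12 markers of microglia and brain macrophages summed to between 7.63 and 19 CPM in BM and between 8.66 and 16.7 CPM in CNS, and Tmem119 and P2ry12, which define microglia, stayed at or below 0.360 and 0.463 CPM. The 20 markers of neural, glial, vascular and meningeal cells summed to between 37.0 and 52.6 CPM in BM and between 42.2 and 69.6 CPM in CNS, most of it from Mbp at 28.8 to 52.4 CPM in both niches, whereas the astrocyte gene Gfap did not exceed 0.848 CPM. Elane, Tmem119, P2ry12 and Gfap were thus near or below the level of silent genes in both niches. Tmem119, with too few counts to be tested, did not overlap, at 0 to 0.044 CPM in BM and 0.0916 to 0.36 CPM in CNS. Markers of these lists and of marrow stroma that had enough counts to test lay higher in CNS more often than lower. Of the 12 tested neural, glial, vascular and meningeal markers 10 were higher, with a median log2 difference of 0.59 and stem medians of 0.24, 0.50, 1.44 and 0.10. All 7 tested myeloid markers were higher, with a median of 0.52, but the stem medians were 0.37, 0.10, 1.37 and -0.41. Of 7 tested markers of marrow stroma 6 were higher, with a median of 0.68 and stem medians of 0.38, 0.71, 1.59 and 0.15. Counts were small, since 14 of the 16 myeloid and 8 of the 10 stroma markers had a mean below 1 CPM. With the covariate for silent genes described below, these medians were 0.01, -0.20 and -0.45. T and NK cell markers went the other way, with 7 of 8 tested lower in CNS, 1 higher and a median of -0.12. Slc1a2, a glutamate transporter of astrocytes, lay between 0.135 and 1.14 CPM in BM and between 1.53 and 2.84 CPM in CNS, without overlap, and Slc1a3, another, between 0.406 and 1.07 CPM in BM and between 1.13 and 1.42 CPM in CNS, also without overlap. Neither passed the test described next (edgeR adjusted p = 0.177 and 0.414 with the block). No marker of these lists passed that test, and the part of other cells in the results was not tested further. In bulk RNA, fewer cells of a type and less RNA per cell cannot be told apart.

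Tested without regard to stems, no gene passed between CNS and BM. Of 19654 genes with a mean count of at least 10, edgeR's quasi-likelihood test with Benjamini-Hochberg adjustment called 0 (0% of genes) at an adjusted p under 0.05, and the smallest adjusted p was 0.836. At an unadjusted p under 0.05 the same test gave 1123 genes (5.71%), 784 higher (3.99%) and 339 lower (1.72%) in CNS, and DESeq2 called 3. With the stem as a block, which compares each CNS library with the BM library of its own stem, 15 genes passed (0.0763% of genes). Of these, 3 rose in CNS (0.0153%) and 12 fell (0.0611%). All 15 moved the same way in 4 of 4 stems, as 20% of all tested genes did, and for 5 of them the 4 CNS libraries did not overlap the 4 BM libraries, against 3.99% of all tested genes. Both fractions describe the same libraries that chose the genes and are given as description only.

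**Figure D2:**
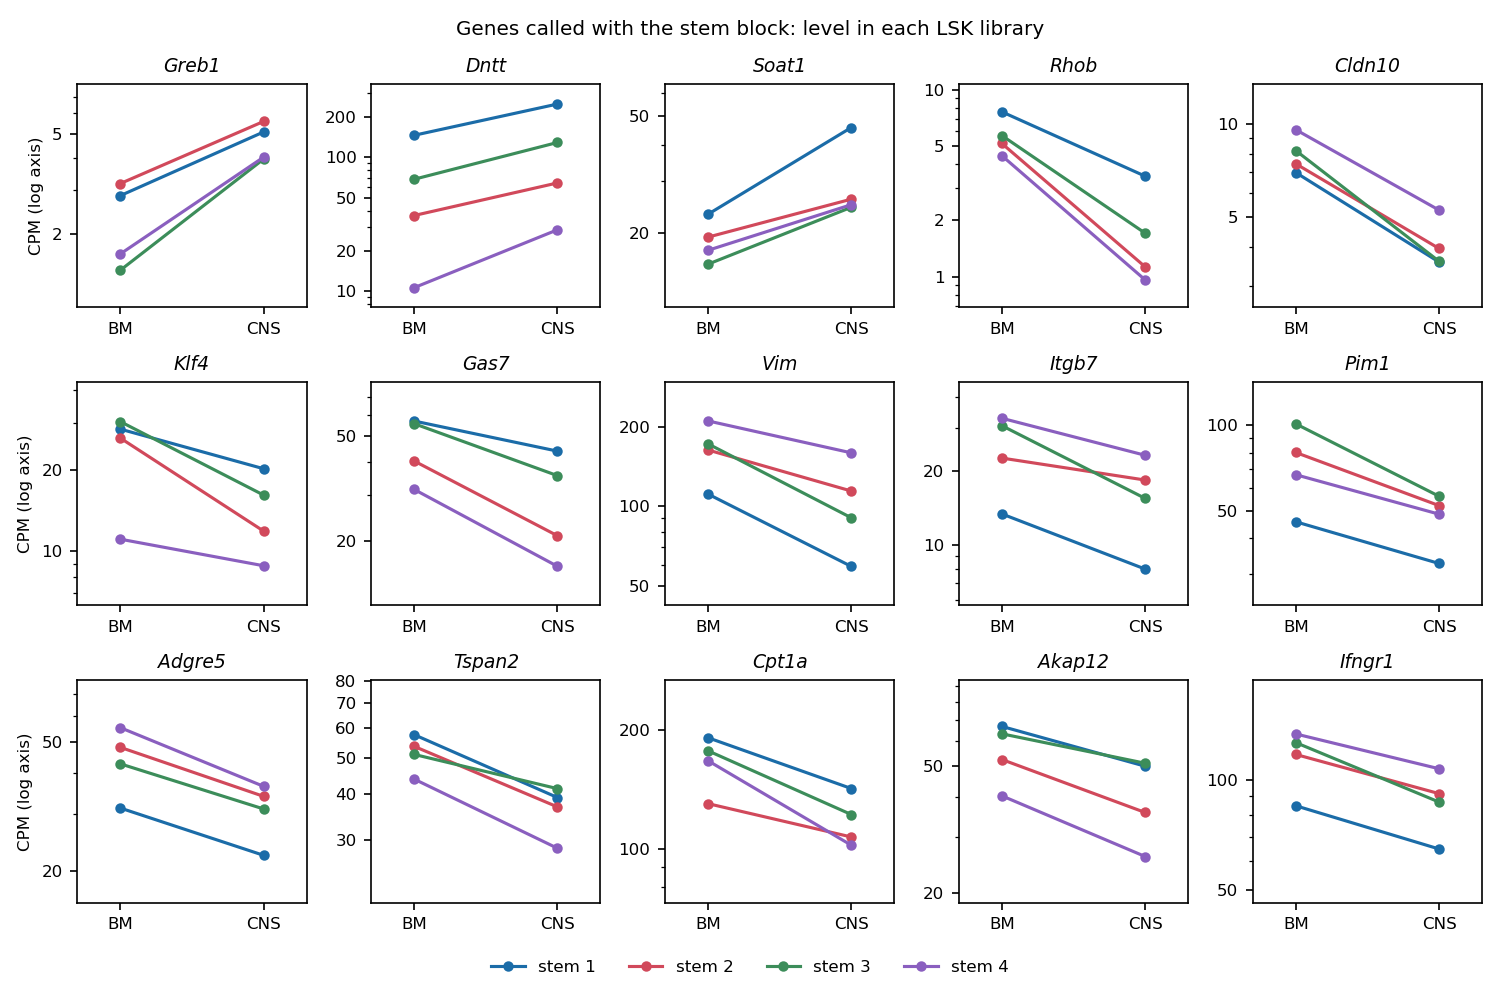
Level of each of the 15 genes called with the stem block, in CPM on a log axis, with a line joining the BM and CNS library of each of the 4 stems. All 4 lines of a gene run the same way, upward for Greb1, Dntt and Soat1 and downward for the other 12, while the height of the lines differs between stems, most of all for Dntt.

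Dntt had the smallest p of the genes that rose. It encodes terminal deoxynucleotidyl transferase, which adds bases without a template at the joints of rearranging antigen receptor genes and marks immature lymphoid cells. Its level was 146, 36.7, 68.5 and 10.6 CPM in BM LSK 1 to 4 and 250, 64.3, 129 and 28.7 CPM in CNS LSK 1 to 4. The 2 groups overlapped widely, since the highest BM library held 13.8 times the level of the lowest, yet each CNS library was above the BM library of its stem by between 1.70 and 2.69 times. In the blocked fit Dntt was 1.93-fold higher in CNS (log2 0.95, SE 0.088, edgeR adjusted p = 0.000531), whereas without the block its adjusted p was 0.857. Of the 15 genes it alone was called whichever stem was left out (adjusted p from 0.000542 to 0.0155).

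The stretch before the start of Dntt is shown because the call of this gene held whichever stem was left out. RefSeq's GRCm38.p6 tables gave promoter windows for 12 of the 15 genes, and the 250 bases before the annotated start were searched on both strands for 9 motifs. These were the AP-1 site (TGANTCA), the cAMP response element (TGACGTCA), the CArG box by its name, the STAT site (TTCNNNGAA), the FOXO site (GTAAACA), the GC box (GGGCGG), the CCAAT box (CCAAT), the LEF site (CTTTGA) and the RBPJ site (TGGGAA). In the sequences below a match would stand in capitals. The Dntt window, chr19:41029025-41029274 on the plus strand, held none of the 9.
Dntt: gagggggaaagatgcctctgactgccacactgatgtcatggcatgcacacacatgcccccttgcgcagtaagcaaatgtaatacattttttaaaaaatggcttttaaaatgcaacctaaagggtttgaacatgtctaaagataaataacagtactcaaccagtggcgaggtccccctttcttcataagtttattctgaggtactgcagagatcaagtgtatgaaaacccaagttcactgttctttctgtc

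Other genes of V(D)J recombination did not pass the test. Of 17 tested genes of recombination and end joining, Dntt was the only one called, against 0.0763% of all genes, 8 were higher and 9 lower, and their median log2 difference was -0.03 against 0.01 over all genes. Rag1 overlapped between niches, as given above, and Rag2 lay between 0.226 and 0.528 CPM in BM and between 0.568 and 1.37 CPM in CNS, near the level of silent genes. Xrcc6, which encodes the Ku70 end-joining protein, was at 647 ± 48.8 CPM in BM and 580 ± 26.5 CPM in CNS (SD, n = 4 each), with an edgeR adjusted p of 0.467 in the blocked fit.

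Cholesterol storage and fatty acid entry into mitochondria each held 1 called gene. Soat1, which esterifies cholesterol for storage in lipid droplets, was at 23.2, 19.4, 15.7 and 17.5 CPM in BM LSK 1 to 4 and at 45.7, 26.1, 24.5 and 25.0 CPM in CNS LSK 1 to 4. All CNS libraries were above all BM libraries, with CNS LSK 1 well above the other three. Soat1 rose 1.56-fold (log2 0.64, SE 0.09, edgeR adjusted p = 0.00865 with the block). Cpt1a, the carnitine palmitoyltransferase that admits long-chain fatty acids to mitochondria for oxidation, was at 191, 130, 177 and 167 CPM in BM LSK 1 to 4 and at 142, 107, 122 and 102 CPM in CNS LSK 1 to 4. Only CNS LSK 1 reached into the BM range. Cpt1a was 28.7% lower in CNS (log2 -0.49, SE 0.071, edgeR adjusted p = 0.0115 with the block).

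The other genes of cholesterol handling did not pass the test. Of 21 tested genes of cholesterol uptake, storage and efflux, 17 were higher and 4 lower in CNS, against 51.8% higher over all genes, and 1 was called, against 0.0763%. The median log2 difference was 0.11 against 0.01 over all genes, and 0.05 with the covariate for silent genes described below. Abcg1, a sterol efflux pump, was at 28.6, 48.7, 28.0 and 31.2 CPM in BM LSK 1 to 4 and at 38.8, 58.4, 47.8 and 37.4 CPM in CNS LSK 1 to 4, higher in CNS in each stem, with a log2 difference of 0.43 (SE 0.084) that missed the threshold (edgeR adjusted p = 0.076). Abca1, another sterol pump, lay between 0.632 and 1.45 CPM in BM and between 1.49 and 2.14 CPM in CNS (adjusted p = 0.414), a level near that of silent genes. The 22 tested genes of cholesterol synthesis were divided, 12 higher and 10 lower, none called, with a median log2 difference of 0.00.

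Of 24 tested genes of the carnitine shuttle and fatty acid oxidation, 18 were lower and 6 higher in CNS, against 48.2% lower over all genes, 1 was called, against 0.0763%, and the median log2 difference was -0.10, with stem medians between -0.09 and -0.04. Acadl, the long-chain acyl-CoA dehydrogenase, was at 46.2 ± 4.61 CPM in BM and 40.8 ± 3.86 CPM in CNS, and Hadhb, of the trifunctional protein, at 31.5 ± 2.74 and 27.8 ± 3.54 CPM (SD, n = 4 each). Neither passed the test, with edgeR adjusted p of 0.423 and 0.468 in the blocked fit. Among genes of fatty acid synthesis and desaturation none of 19 was called. Scd2, a stearoyl-CoA desaturase, was at 212, 297, 220 and 248 CPM in BM LSK 1 to 4 and at 256, 298, 283 and 277 CPM in CNS LSK 1 to 4. Scd2 differed by 0.20 on the log2 scale (SE 0.068, edgeR adjusted p = 0.41), and stem 2 hardly differed.

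Rhob, Vim, Gas7 and Akap12, genes of the cytoskeleton and cell cortex, fell in CNS. Rhob, an early-response small GTPase that acts on endosomes and actin, was at 7.62, 5.16, 5.69 and 4.44 CPM in BM LSK 1 to 4 and at 3.45, 1.13, 1.71 and 0.962 CPM in CNS LSK 1 to 4. Every CNS library was below every BM library, and counts were small, between 21 and 145 per library. Rhob was 70.3% lower in CNS (log2 -1.75, SE 0.20, edgeR adjusted p = 0.00342 with the block), the largest size among the 15 genes. Vim, which encodes the intermediate filament vimentin of motile cells, was at 111, 163, 172 and 210 CPM in BM LSK 1 to 4 and at 59.1, 114, 90.3 and 159 CPM in CNS LSK 1 to 4. The groups overlapped, yet each stem fell, to between 0.524 and 0.758 of its BM level. Vim was 37.9% lower (log2 -0.69, SE 0.085, edgeR adjusted p = 0.00376 with the block).

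The stretches before Rhob (chr12:8500010-8500259, minus strand) and Vim (chr2:13574061-13574310, plus strand) are shown because both genes fell and encode parts of the cytoskeleton machinery. Capitals mark matches to the 9 motifs on either strand. Rhob held 1 GC box, 1 CCAAT box on the strand printed, and an RBPJ match that overlaps a second CCAAT box on the opposite strand. Vim held CCAAT matches and none of the other 8 motifs.
Rhob: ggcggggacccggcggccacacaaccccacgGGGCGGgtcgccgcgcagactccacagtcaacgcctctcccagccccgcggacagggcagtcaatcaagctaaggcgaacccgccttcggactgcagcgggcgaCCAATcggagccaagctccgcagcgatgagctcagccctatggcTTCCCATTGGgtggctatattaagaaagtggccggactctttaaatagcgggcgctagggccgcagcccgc
Vim: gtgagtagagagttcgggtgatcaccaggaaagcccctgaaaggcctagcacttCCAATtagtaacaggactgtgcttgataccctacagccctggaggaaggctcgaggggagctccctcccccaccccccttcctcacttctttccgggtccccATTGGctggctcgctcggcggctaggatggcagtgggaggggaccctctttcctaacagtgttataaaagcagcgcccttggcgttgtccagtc

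Over the 16 windows of the 12 genes, a CCAAT box was found in 7 and a GC box in 6, against 33.8% and 32.7% of all 32817 windows in the table. An RBPJ match was found in 2 windows, of Cldn10 and Rhob, against 21.6%. No AP-1 site, cAMP response element, CArG box, STAT site or LEF site was found in the 16 windows, and these motifs occur in 6.75%, 1.55%, 1.47%, 7.01% and 13.8% of all windows. Absence here says only that these letters are not in the windows searched.

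Gas7, a PCH-family protein that binds actin and membranes, was at 56.9, 40.2, 55.6 and 31.4 CPM in BM LSK 1 to 4 and at 43.8, 21.0, 35.4 and 16.1 CPM in CNS LSK 1 to 4. Stems 1 and 3 were high in both niches, so the groups overlapped while each stem fell. Gas7 was 39.3% lower in CNS (log2 -0.72, SE 0.09, edgeR adjusted p = 0.00376 with the block). Akap12, a scaffold for protein kinases A and C at the cell cortex, was at 66.9, 52.6, 63.4 and 40.4 CPM in BM LSK 1 to 4 and at 50.1, 35.8, 51.2 and 26.0 CPM in CNS LSK 1 to 4. Stems 1 and 3 were again high in both niches and stem 4 lowest. Akap12 was 28.1% lower (log2 -0.48, SE 0.069, edgeR adjusted p = 0.0117 with the block).

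Tiam1, an exchange factor for Rac, was at 39.9, 41.8, 46.0 and 45.1 CPM in BM LSK 1 to 4 and at 49.1, 54.5, 59.9 and 54.4 CPM in CNS LSK 1 to 4. The 2 groups did not overlap, but its log2 difference of 0.33 (SE 0.062) missed the threshold (edgeR adjusted p = 0.069 with the block). Of 21 tested vimentin, galectin, S100 and annexin genes, 16 were lower and 5 higher, against 48.2% lower over all genes, Vim was the 1 called, against 0.0763%, and the median log2 difference was -0.15. Lgals1, galectin-1, was at 71.6, 78.2, 105 and 110 CPM in BM LSK 1 to 4 and at 27.2, 62.6, 47.7 and 86.9 CPM in CNS LSK 1 to 4, lower in each stem, with a log2 difference of -0.78 (SE 0.14, edgeR adjusted p = 0.056). Ahnak, a giant scaffold protein, was at 1460 ± 191 CPM in BM and 1198 ± 115 CPM in CNS (SD, n = 4 each; adjusted p = 0.265).

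The surface genes Itgb7, Adgre5, Cldn10 and Tspan2 fell in CNS. Itgb7, the integrin chain that pairs with alpha-4 or alpha-E to bind MAdCAM-1 or E-cadherin, was at 13.4, 22.6, 30.6 and 32.8 CPM in BM LSK 1 to 4 and at 8.0, 18.4, 15.5 and 23.2 CPM in CNS LSK 1 to 4. Stem 1 was lowest in both niches, and the groups overlapped. Itgb7 was 34.8% lower (log2 -0.62, SE 0.10, edgeR adjusted p = 0.0337 with the block), and leaving out any 1 stem ended the call (adjusted p from 0.0586 to 0.163). Adgre5, the adhesion receptor CD97 of leukocytes, was at 31.3, 48.1, 42.8 and 55.3 CPM in BM LSK 1 to 4 and at 22.4, 34.0, 31.1 and 36.5 CPM in CNS LSK 1 to 4. The 4 stems fell by nearly the same factor, to between 0.66 and 0.727 of their BM level. Adgre5 was 29.9% lower in CNS (log2 -0.51, SE 0.065, edgeR adjusted p = 0.00376 with the block).

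Cldn10, a claudin of tight junctions, was at 6.97, 7.44, 8.21 and 9.59 CPM in BM LSK 1 to 4 and at 3.58, 3.96, 3.60 and 5.27 CPM in CNS LSK 1 to 4. The groups did not overlap. Cldn10 was 49.2% lower (log2 -0.98, SE 0.12, edgeR adjusted p = 0.00376 with the block). Tspan2, a tetraspanin of the cell surface, was at 57.6, 53.6, 51.0 and 43.8 CPM in BM LSK 1 to 4 and at 39.1, 36.9, 41.3 and 28.6 CPM in CNS LSK 1 to 4. It too did not overlap, and it was 29.4% lower (log2 -0.50, SE 0.069, edgeR adjusted p = 0.00855 with the block).

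Of 31 tested genes for homing, chemokine receptors and adhesion, 3 were called, Itgb7, Adgre5 and Cldn10, all lower, against 0.0611% of all genes called lower, and the median log2 difference was -0.01. The list therefore held called genes without a shift of its middle. Cxcr4, the receptor for the marrow chemokine CXCL12, was at 55.3, 60.2, 67.8 and 63.5 CPM in BM LSK 1 to 4 and at 51.9, 50.9, 67.4 and 52.6 CPM in CNS LSK 1 to 4 (log2 difference -0.15, SE 0.066, edgeR adjusted p = 0.478). Itga6, the laminin-binding integrin chain described in CNS leukaemia, was at 13.1 ± 1.37 CPM in BM and 13.1 ± 1.66 CPM in CNS (SD, n = 4 each; edgeR adjusted p = 0.988 with the block).

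The remaining called genes act in signalling and transcription. Klf4, a zinc-finger factor that restrains lymphoid proliferation, was at 28.5, 26.4, 30.4 and 11.1 CPM in BM LSK 1 to 4 and at 20.3, 11.9, 16.2 and 8.84 CPM in CNS LSK 1 to 4. Stem 4 was low in both niches and differed least. Klf4 was 40.1% lower (log2 -0.74, SE 0.11, edgeR adjusted p = 0.0202 with the block). Pim1, a serine/threonine kinase induced by cytokine signalling through STAT5, was at 45.7, 80.1, 101 and 66.9 CPM in BM LSK 1 to 4 and at 32.6, 52.1, 56.2 and 48.6 CPM in CNS LSK 1 to 4. BM LSK 1 fell inside the CNS range, and the other 3 BM libraries lay above all CNS libraries. Pim1 was 34.4% lower (log2 -0.61, SE 0.073, edgeR adjusted p = 0.00376 with the block).

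Ifngr1, the ligand-binding chain of the interferon-gamma receptor, was at 84.9, 117, 126 and 133 CPM in BM LSK 1 to 4 and at 64.8, 91.6, 86.9 and 107 CPM in CNS LSK 1 to 4. BM LSK 1 was again the low library of its group. Ifngr1 was 24.2% lower (log2 -0.40, SE 0.062, edgeR adjusted p = 0.0206 with the block), the smallest size among the 15. Greb1, known as an oestrogen-responsive gene, was at 2.84, 3.17, 1.44 and 1.67 CPM in BM LSK 1 to 4 and at 5.07, 5.58, 3.96 and 4.03 CPM in CNS LSK 1 to 4, with no overlap. Greb1 rose 2.09-fold (log2 1.06, SE 0.18, edgeR adjusted p = 0.0383 with the block), and leaving out any 1 stem ended the call (adjusted p from 0.0843 to 0.199). Its counts were small, between 32 and 138 per library. With the covariate for silent genes described below, its log2 change was 0.78 and, like every other gene there, it was not called.

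Of 29 tested immediate early genes, Klf4 and Rhob were the 2 called, both lower, against 0.0611% of all genes. The list was divided, with 15 higher and 14 lower and stem medians of -0.10, -0.07, 0.02 and -0.05, and its median depended on the fit. The median log2 difference was 0.04 with the block and -0.02 without it. In blocked fits it was -0.14 with the covariate for silent genes described below and -0.05 at a mean count of at least 50. At an unadjusted p under 0.05 in the blocked fit, 7 were lower and 2 higher, against 4.1% and 5.81% of all genes. Klf10 was at 13.3, 13.1, 15.5 and 18.7 CPM in BM LSK 1 to 4 and at 11.5, 9.94, 11.6 and 10.8 CPM in CNS LSK 1 to 4, without overlap, but with an edgeR adjusted p of 0.167. None of 33 tested type I interferon response genes was called, and their stem medians ran from -0.13 to 0.48, with stem 4 apart. Of 13 tested glucocorticoid response genes none was called. Klf9, a direct target of the glucocorticoid receptor, was at 5.20, 12.2, 12.6 and 8.36 CPM in BM LSK 1 to 4 and at 3.45, 6.51, 9.64 and 5.45 CPM in CNS LSK 1 to 4, lower in each stem (log2 difference -0.63, SE 0.12, edgeR adjusted p = 0.0706). Tsc22d3, another such target, was at 29.3 ± 13.8 CPM in BM and 23.3 ± 13 CPM in CNS (SD, n = 4 each; edgeR adjusted p = 0.153 with the block).

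Genes of growth and energy supply differed by small amounts and none was called. Of 55 tested nuclear-encoded subunits of oxidative phosphorylation 54 were lower in CNS, against 48.2% of all genes, with a median log2 difference of -0.13. The stems did not share this, since the stem medians were -0.25, -0.02, -0.25 and 0.02 in stems 1 to 4. Of 76 tested cytosolic ribosomal protein genes 73 were lower, with a median of -0.09 and stem medians of -0.20, 0.03, -0.18 and -0.02. Stems 1 and 3 thus set the direction of both lists. Of 41 tested genes of DNA replication and S phase 40 were lower, with a median of -0.11 and stem medians between -0.17 and -0.01. The 34 tested genes of G2/M and mitosis were divided, 15 higher and 19 lower. Of 31 tested genes of hypoxia response and glycolysis 23 were higher, with a median of 0.09, but stem 4 went the other way, with stem medians of 0.29, 0.11, 0.19 and -0.35. With the covariate for silent genes described below, the medians of oxidative phosphorylation, ribosomal protein and hypoxia genes were -0.07, -0.04 and 0.02.

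**Figure D3:**
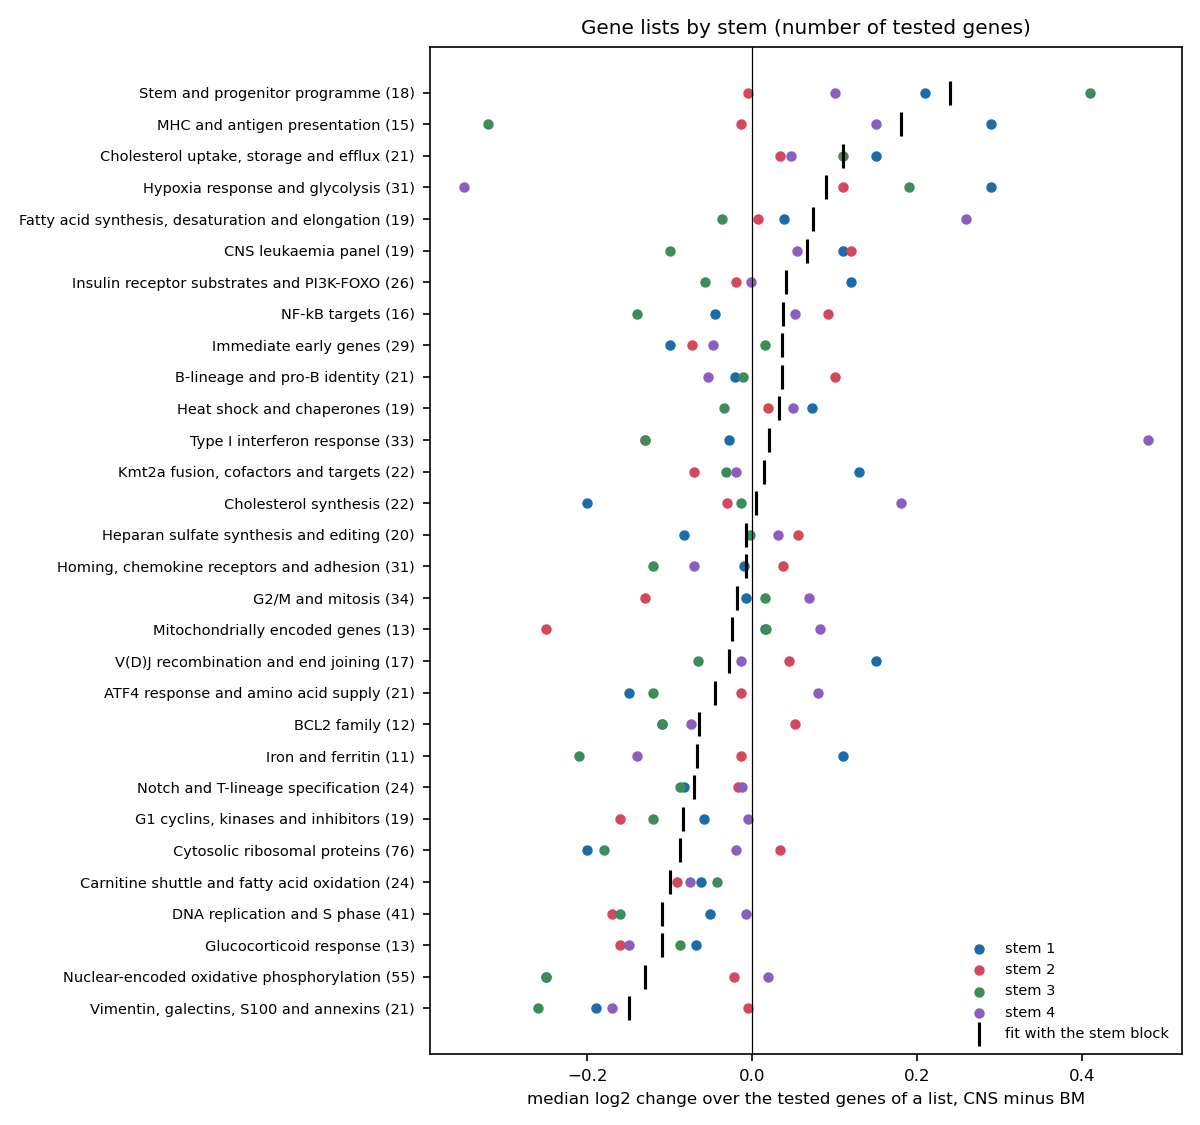
Median log2 difference, CNS minus BM, over the tested genes of each list, for each of the 4 stems (coloured points) and for the fit with the stem block (black bars). Carnitine shuttle genes lie below 0 in all 4 stems. The glucocorticoid response, vimentin, DNA replication, G1 cyclin, and Notch and T-lineage lists do so too. Cholesterol uptake, storage and efflux genes lie above 0 in all 4 stems, while hypoxia, interferon and ribosomal protein lists have stems on both sides.

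None of the genes of the model itself or of the CNS leukaemia panel was called. Kmt2a was at 229 ± 15.3 CPM in BM and 223 ± 9.32 CPM in CNS, and Aff1 at 241 ± 13.8 and 239 ± 8.36 CPM (SD, n = 4 each), neither of which tells the fusion transcript from the normal one. R3hdm1 and Arpp21, the host genes of the mouse miR-128 copies, were at 94.3 ± 3.63 and 233 ± 19.3 CPM in BM and at 90.0 ± 6.67 and 221 ± 24.6 CPM in CNS (edgeR adjusted p = 0.71 and 0.657 with the block, n = 4 each). Of a panel of 24 genes named in work on CNS leukaemia, 19 were tested and none was called. Vegfa, the vascular growth factor, was at 12, 10.1, 12.9 and 7.22 CPM in BM LSK 1 to 4 and at 14.3, 8.20, 14.8 and 4.76 CPM in CNS LSK 1 to 4, higher in 2 stems and lower in 2. Zap70, a T-cell receptor kinase, was at 57.2 ± 4.88 CPM in BM and 56.0 ± 9.37 CPM in CNS (SD, n = 4 each; edgeR adjusted p = 0.861). Hif1a, a transcription factor of the response to low oxygen, was at 59.6 ± 2.44 and 57.9 ± 1.26 CPM (n = 4 each, log2 difference -0.04, SE 0.061). Bcl2, a survival gene, was at 13.8 ± 2.67 and 12.7 ± 2.49 CPM (edgeR adjusted p = 0.689, n = 4 each). Mertk, a receptor kinase of the panel, had 0 to 0.483 CPM in BM and 0.321 to 0.929 CPM in CNS, close to the level of silent genes.

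A further 21 genes had an adjusted p from 0.05 to 0.10 in the blocked fit, 8 higher and 13 lower. Lef1, a transcription factor of T and B precursors, was at 164, 152, 140 and 184 CPM in BM LSK 1 to 4 and at 196, 200, 177 and 230 CPM in CNS LSK 1 to 4, higher in each stem (log2 difference 0.33, SE 0.059, edgeR adjusted p = 0.0619). Gata3, a T-lineage factor, was at 38.4, 32.1, 31.9 and 36.7 CPM in BM LSK 1 to 4 and at 43.8, 40.7, 43.7 and 45.7 CPM in CNS LSK 1 to 4, with no overlap and an edgeR adjusted p of 0.111. Of 24 tested genes of Notch and T-lineage specification none was called, and 19 were lower in CNS, with a median log2 difference of -0.07.

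The level of silent genes was higher in CNS in each stem, but this did not pass the test. Olfactory and vomeronasal receptor genes took 784, 842, 312 and 536 CPM of the counts with a symbol in BM LSK 1 to 4 and 929, 1125, 938 and 743 CPM in CNS LSK 1 to 4. The CNS library was higher in 4 of 4 stems, with means of 619 ± 244 in BM and 933 ± 156 in CNS (SD, n = 4 each; two-sided exact permutation p = 0.0857, 0.429 after adjustment over 5 library measures). An exact sign-flip test over 4 stems cannot go below 0.125, the value it gave. BM LSK 3 had the lowest level and also the fewest genes with a count, 33600, against 40292 to 46067 in the other 7 libraries.

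Genes higher in CNS had smaller counts than genes lower in CNS. At an unadjusted p under 0.05 in the blocked fit there were 1946 genes (9.9%), of which 1141 were higher in CNS (5.81% of genes) and 805 lower (4.1%). The higher genes had a median mean count of 25.8 and a median size of 0.99 on the log2 scale, whereas the lower genes had a median mean count of 629 and a median size of 0.22, against a median mean count of 103 for all genes. When the level of the receptor genes entered the blocked fit as a covariate, no gene was called by edgeR and the smallest adjusted p was 0.0912, with 702 genes at an unadjusted p under 0.05. All 15 genes kept their sign and an unadjusted p under 0.05 there, Dntt with a log2 change of 0.94 (adjusted p = 0.197) and Rhob with -1.68 (adjusted p = 0.565). The covariate was higher in CNS in each stem, so it overlaps with the niche, and it leaves the fit less to estimate the spread from. Lost calls and changed medians in this fit therefore cannot separate the level of silent genes from lost power or from the niche. The part of this level in the 15 results was not tested in any other way.

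**Figure D4:**
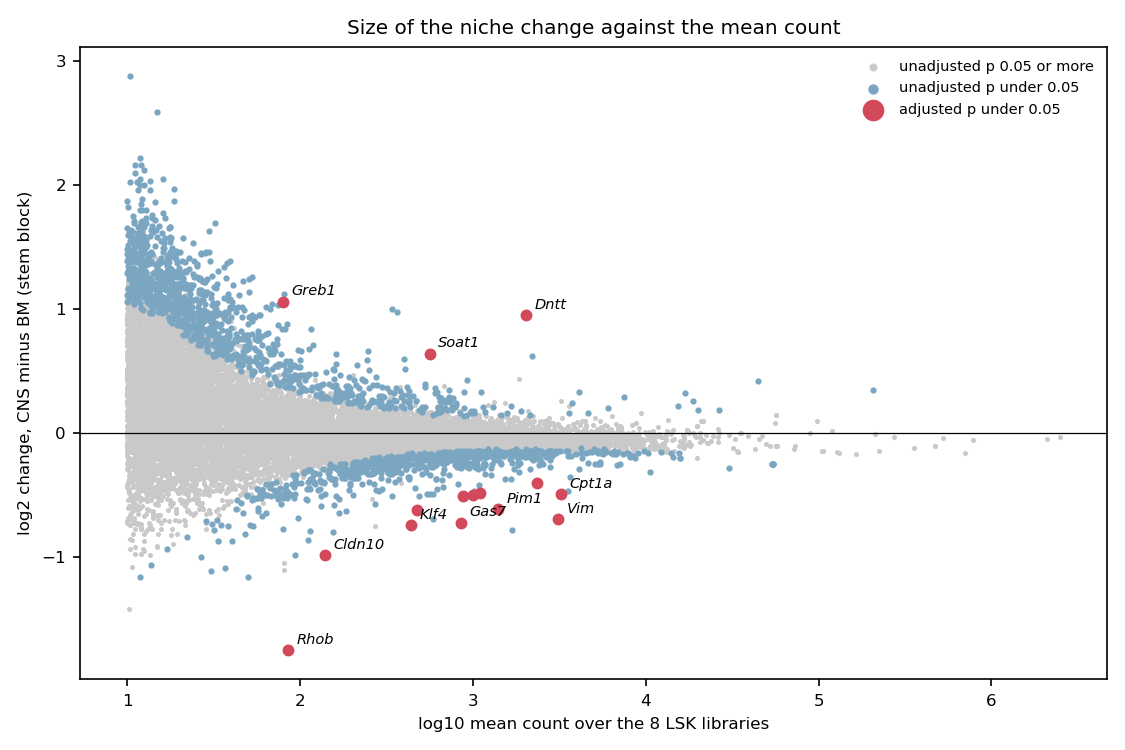
Log2 difference between CNS and BM from the fit with the stem block against the mean count over the 8 LSK libraries (log10), for 19654 genes. Grey points have an unadjusted p of 0.05 or more, blue points a smaller one and red points an adjusted p under 0.05; most blue points above 0 have small counts, while those below 0 lie at larger counts.

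Leaving out stem 2 ended most calls. Without it, 1 gene was called, Dntt (edgeR adjusted p = 0.0155), and the other 14 genes had adjusted p from 0.0586 to 0.21. Their sizes moved little, for example from -1.75 to -1.61 for Rhob, from -0.69 to -0.74 for Vim and from 0.64 to 0.73 for Soat1 on the log2 scale. Without stem 1, 3 or 4 the blocked fit called 20, 13 and 16 genes, of which 13, 10 and 10 were among the 15. Cpt1a lost its call also without stem 3 or 4 (adjusted p = 0.0557 and 0.0568), Klf4 and Ifngr1 without stem 3 (0.0893 and 0.164), and Tspan2 and Akap12 without stem 4 (0.0589 and 0.0788).

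The same genes were read in the LK libraries, none of which enters the LSK fit that called the 15 genes. LSK and LK share no stem, though stems of the same number begin alike, and how they are related is not given in the sources used here. All 15 had the same sign there in a fit with a block, as did 59.8% of the 17834 genes tested in both populations. At an unadjusted p under 0.05 there were 12, against 6.57% of genes tested in LK, and 7 were called, Dntt, Soat1, Gas7, Vim, Itgb7, Cpt1a and Akap12, against 0.143%. Dntt was at 47.8, 50.6, 38.7 and 31.8 CPM in BM LK 1 to 4 and at 90.6, 110, 107 and 44.3 CPM in CNS LK 1 to 4, without overlap between 3 of the CNS libraries and BM, and its log2 change was 1.00 (SE 0.10, edgeR adjusted p = 0.000432). Vim was at 169, 131, 212 and 177 CPM in BM LK 1 to 4 and at 116, 72.0, 134 and 140 CPM in CNS LK 1 to 4 (log2 -0.60, SE 0.07, edgeR adjusted p = 0.00132). Soat1 was at 16.7, 20.7, 16.2 and 16.6 CPM in BM LK 1 to 4 and at 27.5, 30.4, 21.2 and 27.5 CPM in CNS LK 1 to 4, with all CNS libraries higher (log2 0.60, SE 0.078, edgeR adjusted p = 0.00315).

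No gene was shown to change differently in LSK and LK cells. The test of the difference itself called 0 of 18878 genes (0%) without the block and 0 with it, and the smallest adjusted p was 1 in both, with 281 and 589 genes at an unadjusted p under 0.05. With the block, 5 of the 15 genes had an unadjusted p under 0.05 for the difference, against 3.12% of genes tested. Cldn10 was furthest apart, with a log2 difference between niches of -0.98 in LSK and -0.12 (SE 0.15) in LK, where BM held 8.48, 3.17, 5.73 and 7.59 CPM and CNS 6.86, 2.81, 7.80 and 5.63 CPM. Pim1 had -0.61 in LSK and -0.14 (SE 0.08) in LK, and Ifngr1 -0.40 and -0.09 (SE 0.055), with edgeR adjusted p of 1 for each of the 3 differences. These 15 genes were chosen by their values in LSK, so a smaller size in LK is given as a description.

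**Figure D5:**
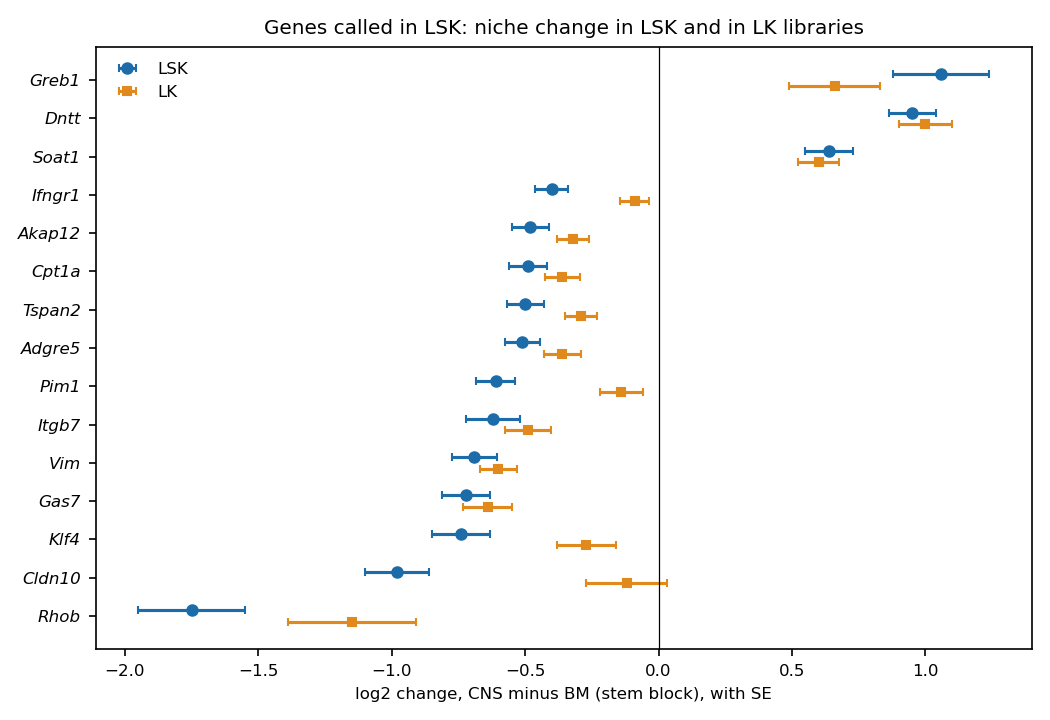
Log2 change between CNS and BM with its standard error for the 15 genes called in LSK, in the 8 LSK libraries (blue circles) and the 8 LK libraries (orange squares), each fitted with a block. All 15 pairs lie on the same side of 0, close together for Dntt, Soat1, Vim and Gas7 and apart for Cldn10, Pim1, Klf4 and Ifngr1.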

How the data were processed

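Bulk RNA-seq of sorted cells was analysed from 1 table of whole-number counts per Ensembl identifier for 16 libraries. The deposited values are counts: they are whole numbers with unequal totals, although the table is called normalised by name. Per the submitters' processing notes, DESeq2 and the build GRCm39 were used. The aligner, the counting tool, and whether molecular identifiers or strand were used are not given in the sources used here. Counts with PCR copies are not independent molecules, so precision from depth covers counting error only.

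Genes with a mean count of at least 10 over the 8 LSK libraries were tested with edgeR 4.0.16 (quasi-likelihood, TMM scaling, Benjamini-Hochberg threshold 0.05) in R 4.3.3, first without and then with the stem as a block. The table pairs 52081 of 55414 identifiers with a symbol. Deviations from the group means correlated between libraries of the same stem at 0.221, 0.31, 0.0224 and 0.217 for stems 1 to 4 over all tested genes, and at 0.469, 0.352, 0.383 and 0.522 over genes with a mean count of at least 50, where each BM library correlated best with its own stem. Over all tested genes that did not hold for stem 3, whose BM library correlated at 0.246 with CNS LSK 4. The pairing comes from the shared stem in the labels, and its nature is not stated. Genes named are the called ones with a mean count of at least 50 and the same direction in 4 stems, the sort and model genes, the CNS leukaemia panel, the genes with the smallest p of each list, and, since the fit without the block called none, 3 genes of smallest unadjusted p there in each direction. Lineage, marker and near-threshold genes outside this rule were chosen after their values were seen. The members and gene lists were chosen with earlier results of these data known.

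The alternatives were DESeq2 1.42.0, voom of limma 3.58.1, median-of-ratios scaling, other filters, a covariate for the level of silent genes, all 16 libraries in 1 fit and each library or stem left out. The models were tested on simulated data. Library measures were compared with exact permutation tests. Some results are not reported here.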

Additional observations from a re-analysis of the deposited data

Results flagged for a closer look

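Of 54 groups of 4 libraries examined with Dixon's test, 3 held a library far from the others, and chance gives about 1 in 20, or 2.7. CNS LSK 1 held Soat1 at 45.7 CPM, against 24.5 to 26.1 CPM in the other CNS LSK libraries. CNS LSK 1 held Arpp21 at 257 CPM, against 203 to 212 CPM in the others. BM LSK 1 had a protein-coding share of counts of 45.6%, against 46.6% to 46.8% in the other BM LSK libraries.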

How the results depend on the processing

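The number of genes called depended on the pairing and the tool. Without the replicate block the count was 0, and it was 61 with no filter on low counts, 3 with DESeq2 and 15 with the replicate block. It was 0 without each single library in turn. With the replicate block the count went from 15 to 156 with no filter, 37 with DESeq2, 35 with limma voom, 30 with identifiers that have a symbol only, 29 with all 16 libraries and 0 with the covariate for silent genes. Leaving out 1 stem gave between 1 and 20. All 15 genes kept their sign in each of these fits, and the cause of the shifts in number was not tested. The number of genes differing in change between LSK and LK stayed at 0 with the replicate block, with DESeq2 and with a higher filter. The paired exact sign-flip test gave p = 0.125 for genes with a count and for silent genes.

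The mean difference in total count, -0.683 M, ranged from -2.04 to 0.861 M with 1 library left out, turning sign without BM LSK 2 (0.861). The difference in protein-coding share, 0.439 percentage points, ranged from -0.114 to 1.29, turning sign without CNS LSK 4 (-0.114). Genes with a mean count under 10 were left out, and at 4 libraries per niche a gene that did not pass is not shown to be equal.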
